A study of Mus musculus with 9 samples.

Results

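The regions described here are distal peaks of acetylated histone H3 lysine 27 (H3K27ac) that were called in Shh-/- mouse forelimb buds and in neither of the other genotypes of the series. A peak of the Shh-/- list was a member when it lay on an autosome, shared not 1 bp with any WT or Shh-/-;Gli3-/- peak, and lay outside every promoter window, which ran from 2 kb before to 1 kb after a protein-coding transcript start. The rule kept 8641 of the 32085 peaks of the Shh-/- list, out of 91822 peaks in the 3 lists together. Of the 16219 distal autosomal Shh-/- peaks, the members were 53.3% (95% Wilson interval 52.5 to 54.0). The share was 37.8% when a gap of up to 500 bp counted as shared and 4.17% among Shh-/- peaks of at least 500 bp. The members were selected on the presence and absence of called peaks, so these shares, the folds and the calls around the members are descriptions and carry no test.

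The series holds 9 libraries from E10.5 forelimb buds, made by MicroChIP-seq (chromatin immunoprecipitation scaled down to few cells), at 33 to 34 somites. For WT, Shh-/- and Shh-/-;Gli3-/- embryos there were 2 H3K27ac libraries and 1 input each, every immunoprecipitation used the limb bud pair of a single embryo, and the labels give a mixed strain background in all groups, where the study's methods keep the Shh null and Gli3 Xt-J alleles on Swiss Webster. Both mutant groups carried the same loss of Shh, and Shh-/-;Gli3-/- embryos lacked Gli3 as well. Genotypes were taken from the sample titles, since the labels' genotype field calls all of them wild type. The peaks at the deleted genes Shh and Gli3 give no check of the titles. Shh had no promoter peak in any list. Peaks that touched a Gli3 promoter window had summed widths of 4.10 kb (WT), 3.90 kb (Shh-/-) and 5.10 kb (Shh-/-;Gli3-/-), with 15, 26 and 19 distal peaks nearest to Gli3. Promoter lengths here and below are full peak widths, also where a peak ran past the window. The deleted stretch of Gli3 is not given in the sources used here. Each genotype has 1 peak list, with no value per replicate, so no spread between embryos could be computed. The intervals given below cover counting error over peaks only, and depth per library was not part of the analysed tables.

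H3K27ac marks active promoters and enhancers. In the limb bud, Shh is secreted by posterior mesenchyme. Without it, GLI3 is processed into a transcriptional repressor throughout the bud, and the bud loses posterior structures. Removing Gli3 along with Shh takes away most of that repressor, and many posterior genes are then expressed again. A list of peaks from a whole bud cannot tell a larger share of anterior cells from more acetylation per cell. At the promoters of 7 forelimb mesenchyme markers (Tbx5, Prrx1, Prrx2, Msx1, Lmx1b, Twist1 and Lhx9) each list held a peak in 7 of 7, while the hindlimb markers Pitx1 and Tbx4, 7 ectoderm and 6 neural and neural crest markers had none in any list. Of 6 blood markers, 2 had a promoter peak in the Shh-/- list and 0 in the others, covering 0.300 kb in all. Of 6 endothelial markers, 1 had one in WT, 1 in Shh-/- and 2 in Shh-/-;Gli3-/-, and of 4 muscle precursor markers 3 had one, in the Shh-/-;Gli3-/- list only. The part of these cell types in the results was not tested.

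Members of 5 loci are printed below as the 200 bp at the middle of the peak, read from the plus strand of GRCm38 (the assembly behind mm10), none of it exonic. Alx4 and Cdon stand for the anterior and Hedgehog pathway loci described later, and the Tspan2, Rab6b and Phactr1 members for those with the GLI core TGGGTGGTC. Capitals mark matches on either strand to any of the 15 motif words searched, and a run without capitals holds none of them.
Member 3.61 kb from an Alx4 start, inside Alx4, chr2:93645900-93646099: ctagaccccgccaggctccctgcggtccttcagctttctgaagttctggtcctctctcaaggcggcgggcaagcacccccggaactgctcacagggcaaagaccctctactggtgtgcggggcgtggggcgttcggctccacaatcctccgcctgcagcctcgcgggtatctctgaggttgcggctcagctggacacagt
Member 60.7 kb from a Cdon start, chr9:35360725-35360924: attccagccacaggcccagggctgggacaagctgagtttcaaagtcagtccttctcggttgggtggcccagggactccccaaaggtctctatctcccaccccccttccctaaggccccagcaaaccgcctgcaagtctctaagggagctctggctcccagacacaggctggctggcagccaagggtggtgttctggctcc
Member 78.3 kb from a Tspan2 start, chr3:102656175-102656374: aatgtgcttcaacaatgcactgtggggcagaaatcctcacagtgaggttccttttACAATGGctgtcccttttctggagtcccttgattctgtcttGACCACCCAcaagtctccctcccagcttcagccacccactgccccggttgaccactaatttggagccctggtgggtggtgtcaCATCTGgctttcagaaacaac
Member 19.3 kb from a Rab6b start, inside Slco2a1, chr9:103092400-103092599: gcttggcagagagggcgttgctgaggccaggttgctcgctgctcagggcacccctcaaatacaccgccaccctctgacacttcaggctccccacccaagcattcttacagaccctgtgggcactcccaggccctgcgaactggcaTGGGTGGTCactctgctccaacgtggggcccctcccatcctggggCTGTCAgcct
Member 45.3 kb from a Phactr1 start, inside Phactr1, chr13:42754825-42755024: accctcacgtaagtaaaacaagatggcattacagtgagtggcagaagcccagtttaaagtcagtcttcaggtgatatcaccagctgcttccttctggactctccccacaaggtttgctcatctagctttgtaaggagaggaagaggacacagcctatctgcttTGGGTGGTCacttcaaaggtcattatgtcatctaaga
The Tspan2 run holds the GLI core with 1 HAND-type E-box and 1 SOX word, the Rab6b run the GLI core with 1 MEIS word, and the Phactr1 run the GLI core alone. A match is a string of letters and was not taken as a bound site.

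Most members were short peaks of moderate fold. Their median width was 150 bp (middle 50% of members 100 to 200 bp, range 100 to 1100 bp, in the 50 bp steps of the list), and 69.8% (68.8 to 70.7) were 100 or 150 bp wide. Distal Shh-/- peaks that also lay in all 3 lists had a median width of 400 bp, and 13.6% (12.5 to 14.7) of them were 100 or 150 bp wide. Short peaks were not particular to the members. Distal peaks only in WT and only in Shh-/-;Gli3-/- also had median widths of 150 bp. Of these, 76.4% (75.2 to 77.6) and 51.1% (50.2 to 51.9) were 100 or 150 bp wide. The deposited log2 fold of immunoprecipitate over input had a median of 2.58 in the members, with a range from 2.21 to 4.38. It was 3.13 in the peaks of all 3 lists. The false discovery rate (FDR) given by the authors was below 0.05 for 4440 members, or 51.4% (50.3 to 52.4), against 84.2% (83.0 to 85.3) of peaks in all 3 lists. The share was 29.2% (27.9 to 30.5) of distal peaks only in WT and 72.3% (71.5 to 73.1) of those only in Shh-/-;Gli3-/-.

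The share of members fell steeply with peak strength. In the lowest of 10 bins of log2 fold (2.21 to 2.35), 1104 of 1623 distal Shh-/- peaks were found only in Shh-/-, or 68.0% (65.7 to 70.2). The share was 63.4% in the fifth bin, 46.7% in the eighth and 9.43% (8.10 to 10.95) in the highest, where 153 of 1622 peaks were members. By width it went from 78.9% (77.7 to 80.1) of peaks of 100 bp to 3.02% (2.27 to 4.01) of peaks of 550 bp or more. Strong distal peaks of the Shh-/- list were thus mostly shared with another genotype, and weak ones mostly not. The rule favours this order, since a wider peak has more bases on which an overlap can fall. Median member width was 100 bp in the lowest fold bin and 300 bp in the highest, and the part of width was not tested.

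**Figure D1:**
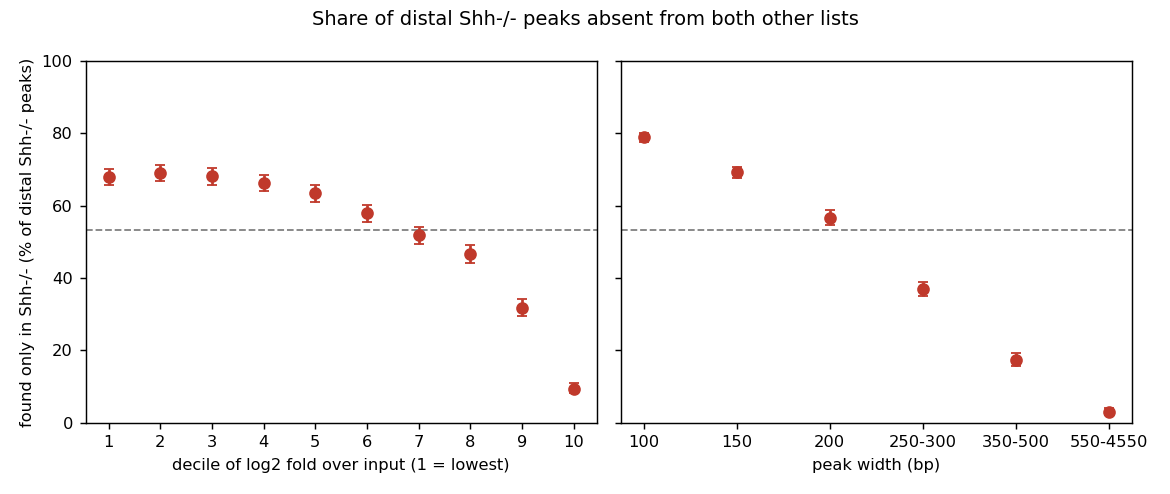
Share of distal autosomal Shh-/- peaks found in no other list (y axis, %) by decile of log2 fold over input (left) and by peak width in bp (right). Points are shares and bars 95% Wilson intervals, the dashed line is the 53.3% of all distal peaks, and the share drops from 68.0% to 9.43% over the deciles and from 78.9% to 3.02% over the widths.

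Members near the edges of the rule looked like their neighbours on the other side. There were 826 members with 0 to 50 bp between them and a peak of another list, with a median log2 fold of 2.57 and a median width of 150 bp. The 630 distal Shh-/- peaks left out by an overlap of only 50 bp had a median log2 fold of 2.58 and the same median width. The promoter window left out a further 2522 autosomal peaks found only in Shh-/-, with a median log2 fold of 2.61, and 241 members lay within 500 bp outside a window.

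A large part of the members flanked peaks that other genotypes did have. The median gap to the nearest peak of another list was 4.60 kb, 29.0% (28.1 to 29.98) lay within 0.5 kb of such a peak and 59.5% (58.4 to 60.5) within 10 kb. Only 666 members, or 7.71% (7.16 to 8.29), had no WT or Shh-/-;Gli3-/- peak within 100 kb. Shh-/-;Gli3-/- peaks were nearer than WT peaks, with median gaps of 7.20 and 15.1 kb. The Shh-/-;Gli3-/- list is also the longer one, with 34641 peaks against 25096. Distal peaks found only in WT or only in Shh-/-;Gli3-/- had medians of 7.85 and 4.15 kb to another list.

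**Figure D2:**
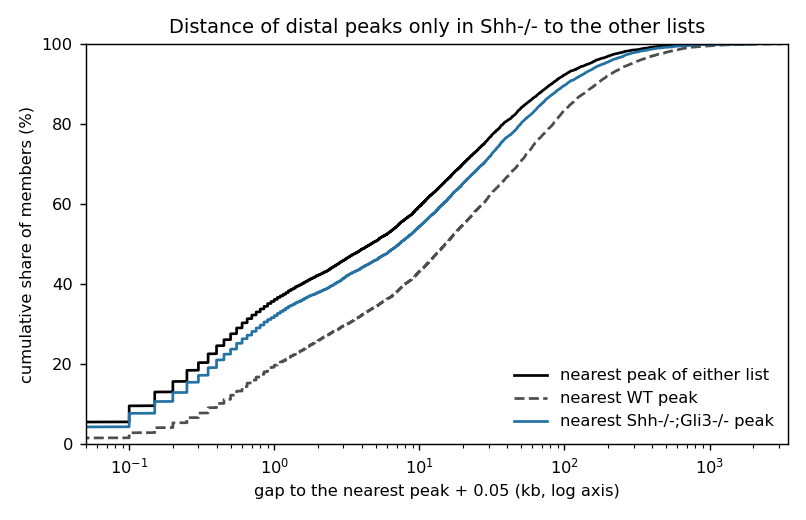
Cumulative share of the 8641 members (y axis, %) by the gap to the nearest peak of either other list, of the WT list or of the Shh-/-;Gli3-/- list (x axis, kb plus 0.05, log axis). The curve for either list passes 29.0% at 0.5 kb and 59.5% at 10 kb, and the WT curve runs lowest.

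By position, 47.5% (46.5 to 48.6) of members lay in a protein-coding gene without touching an exon, 43.9% lay outside such genes, and 8.6% (8.03 to 9.21) overlapped an exon. Their median distance to the nearest protein-coding start was 42.7 kb, and 28.0% (27.1 to 29.0) were over 100 kb away. This was closer than for the distal peaks only in Shh-/-;Gli3-/- (66.8 kb) and farther than for those only in WT (34.7 kb). The share of distal peaks that were members varied over the 19 autosomes from 47.7% (44.1 to 51.2) on chromosome 14 to 58.3% (54.7 to 61.8) on chromosome 10.

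The base composition of the members lay between that of the other genotype-specific sets. Median GC content was 50% in the members, 52% in distal peaks only in WT and 45.5% in those only in Shh-/-;Gli3-/-, over an autosomal genome of 41.9%. The order was the same at high and low deposited log2 fold, although the same fold need not mean the same strength in each list. At a log2 fold of 3 and above the medians were 50, 52 and 43.6%, and below 2.5 they were 50, 52 and 46%. Peaks more than 50% soft-masked as repeats were 9.45% (8.86 to 10.1) of members, 17.1% (16.1 to 18.2) of peaks only in WT and 8.46% (7.99 to 8.95) of those only in Shh-/-;Gli3-/-.

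The GLI core was rare in the members, with an interval that holds the share in the genome. Within 500 bp at the peak middle, 33 of 8641 members held TGGGTGGTC on either strand, or 0.382% (0.272 to 0.536). The shares were 0.330% (0.224 to 0.487) in distal Shh-/- peaks shared with another list and 0.327% in 4791480 autosomal tiles of 500 bp. In distal peaks only in WT the share was 0.697% (0.499 to 0.972), and in those only in Shh-/-;Gli3-/- it was 0.336% (0.249 to 0.452). The 8 of highest fold were nearest to Enpp7, Efnb2, Tspan2, Robo1, Rab6b, Phactr1, Crygn and Sorl1, with log2 folds from 2.83 to 3.21, and none of these genes was in the limb or Hedgehog lists. The MEIS word TGACAG was in 31.3% (30.3 to 32.3) of members, 27.8% (26.8 to 28.9) of shared distal peaks and 28.8% of tiles, and also in 31.3% of distal peaks only in WT and 30.6% of those only in Shh-/-;Gli3-/-. The SP/KLF word GGGCGG was in 12.5% (11.8 to 13.2) of members and 20.98% (20.1 to 21.9) of shared peaks, against 12.2% of peaks only in WT, 8.92% of those only in Shh-/-;Gli3-/- and 4.70% of tiles. The homeodomain word TAATTA was in 10.8% (10.2 to 11.5) of members, 9.63% of peaks only in WT, 18.3% of those only in Shh-/-;Gli3-/- and 16.8% of tiles. These shares move with base composition, and its part in them was not tested.

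Many members lay in clusters, though a smaller share of them than of the shared distal peaks. With a cluster defined as 3 or more members within 100 kb, 4254 members, or 49.2% (48.2 to 50.3), fell into 800 clusters with a median of 4 members and a median span of 75.6 kb. Of the 7578 distal Shh-/- peaks shared with another list, 69.5% (68.5 to 70.5) lay in clusters by the same definition, as did 26.1% (24.9 to 27.4) of distal peaks only in WT and 67.8% (67.0 to 68.6) of those only in Shh-/-;Gli3-/-. There were 65 clusters of 10 or more members and 15 of 20 or more. Distal peaks only in WT formed 2 clusters of 10 or more and 0 of 20 or more from 4879 peaks, and those only in Shh-/-;Gli3-/- formed 210 and 32 from 12816 peaks. The number of clusters grows with the number of peaks, and the lists differ in length.

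The cluster with most members surrounded Alx4, a homeodomain transcription factor of the anterior limb bud mesenchyme that keeps Shh expression posterior. It held 45 members over 349 kb at chr2:93436250-93785549, which also holds the starts of Cd82 and Gm10803. All Shh-/- peaks in this span numbered 57 and covered 15.0 kb. WT had 9 peaks covering 2.85 kb, and Shh-/-;Gli3-/- had 13 covering 4.05 kb. Without the members, the 12 remaining Shh-/- peaks covered 6.25 kb, more than either other list over the whole span. The same held for the clusters at Cdon and Sorl1, and by a narrow margin at Actrt2 (20.3 kb against 20.25 kb in Shh-/-;Gli3-/-). It did not hold for the others of the 10 largest. The span was chosen for its number of members, so this is no independent support. Of the members, 19 were nearest to Alx4, 11 to Cd82, 8 to Gm10803 and 7 to Ext2.

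Around Alx4 itself the difference between the lists was large in number. There were 22 distal Shh-/- peaks nearest to Alx4, 2 in WT and 3 in Shh-/-;Gli3-/-. Of the 22, 19 were members, or 86.4% (66.7 to 95.3), where 53.3% of all distal Shh-/- peaks were. Alx4 is described because its cluster had most members, which favours a high share and a difference in number. Peaks of 1 locus are also not independent. The 19 members had log2 folds from 2.28 to 3.98 (median 2.82) and widths from 100 to 550 bp. They lay 2.11 to 54.7 kb from an Alx4 start. The strongest is the one printed above, a peak of 500 bp at chr2:93645750-93646249 inside the gene. With only peaks of FDR below 0.05 in every list the distal numbers were 15 in Shh-/-, 1 in WT and 2 in Shh-/-;Gli3-/-, and with lists cut to equal length 16, 2 and 2. Peaks that touched an Alx4 promoter window, which the rule did not use, had summed full widths of 2.35 kb in Shh-/-, 1.30 kb in WT and 0.850 kb in Shh-/-;Gli3-/-.

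Another of the 10 largest clusters lay at Gas1, which encodes a membrane-anchored protein that binds SHH and promotes signalling, and whose transcription is reduced by the pathway. The cluster held 35 members over 578 kb (chr13:59887100-60465399), 19 of them nearest to Gas1. Their log2 folds ran from 2.25 to 4.26, and 9 of the 19 had an FDR below 0.05. The strongest, at chr13:60053900-60054249, lay 123 kb from the Gas1 start and overlapped an annotated exon. Here the other genotypes also had many peaks, and the 19 members were 48.7% (33.9 to 63.8) of the distal Shh-/- peaks nearest to Gas1, with an interval that holds the 53.3% of all. Distal peaks nearest to Gas1 numbered 39 in Shh-/-, 26 in WT and 28 in Shh-/-;Gli3-/-, and all peaks in the span covered 29.0, 14.5 and 29.7 kb. With lists of equal length the distal numbers were 29, 26 and 22, and with only peaks of FDR below 0.05 they were 26, 10 and 25.

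Cdon, like Gas1, encodes a co-receptor of SHH. Its cluster held 27 members over 251 kb (chr9:35280650-35531349), 14 of them nearest to Cdon (77.8%, 54.8 to 91.0, of its 18 distal Shh-/- peaks), with log2 folds from 2.26 to 4.04. As at Alx4, the choice by number of members favours a high share. Distal peaks nearest to Cdon were 18 in Shh-/-, 6 in WT and 5 in Shh-/-;Gli3-/-. In this span Shh-/- peaks covered 20.4 kb, WT peaks 5.90 kb and Shh-/-;Gli3-/- peaks 11.2 kb. Peaks that touched the Cdon promoter had summed widths of 2.1, 1.1 and 1.55 kb in the same order. With only peaks of FDR below 0.05 in every list the distal numbers were 10 in Shh-/-, 2 in WT and 5 in Shh-/-;Gli3-/-, and with equal lengths 11, 6 and 4. Boc, a co-receptor related to Cdon, was in none of these clusters and had 3 members, with 11 distal peaks in Shh-/-, 9 in WT and 16 in Shh-/-;Gli3-/-. The strongest Cdon member, at chr9:35360450-35361199, was 750 bp wide and is printed above.

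**Figure D3:**
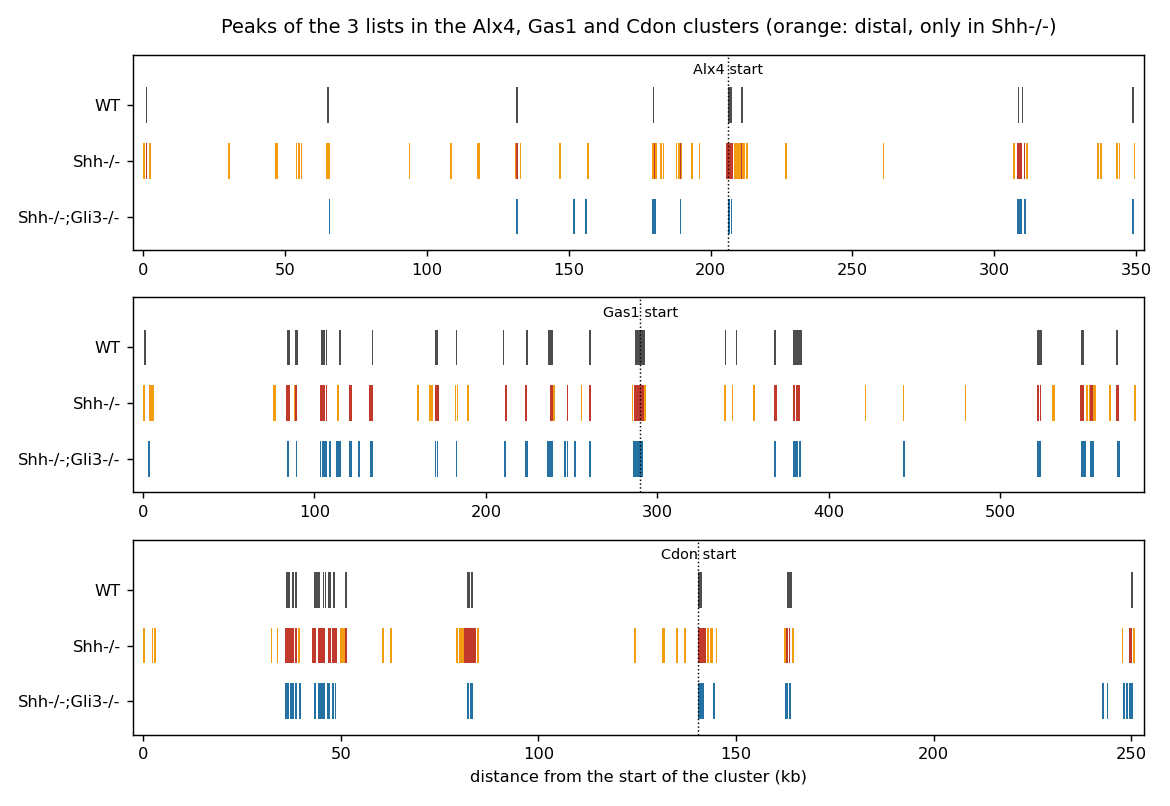
Peaks of the WT, Shh-/- and Shh-/-;Gli3-/- lists (rows) along the Alx4, Gas1 and Cdon clusters, by distance from the start of each cluster (x axis, kb), with members in orange and the start of each gene as a dotted line. Narrow peaks are drawn at a minimum width. The Alx4 span holds 57 Shh-/- peaks against 9 in WT and 13 in Shh-/-;Gli3-/-, while the Gas1 span holds 76 against 45 and 49.

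The other clusters among the 10 largest differed in how much the remaining genotypes covered. At Actrt2 and Prdm16, the latter a zinc finger transcription factor, 37 members lay within 334 kb, among 66 Shh-/- peaks, with 29 peaks in WT and 32 in Shh-/-;Gli3-/-. Between Sulf2, an enzyme that removes sulfates from heparan sulfate, and Prex1 there were 32 members, with 10.45 kb covered in Shh-/-, 4.40 kb in WT and 7.30 kb in Shh-/-;Gli3-/-. Mecom, a zinc finger transcription factor gene, was nearest to all 30 members of its cluster, and there Shh-/-;Gli3-/- covered most, with 40.9 kb against 30.4 kb (Shh-/-) and 17.2 kb (WT). The clusters at Zfp36l1, which encodes an mRNA decay factor, and at the sorting receptor gene Sorl1 held 27 and 24 members. Those at Haao and at the limb mesenchyme gene Prrx2 held 24 and 23. Shh-/- had the most peaks in 10 of these 10 clusters, which the choice by number of members favours, and the largest covered length in 6, with Shh-/-;Gli3-/- ahead in 4.

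**Figure D4:**
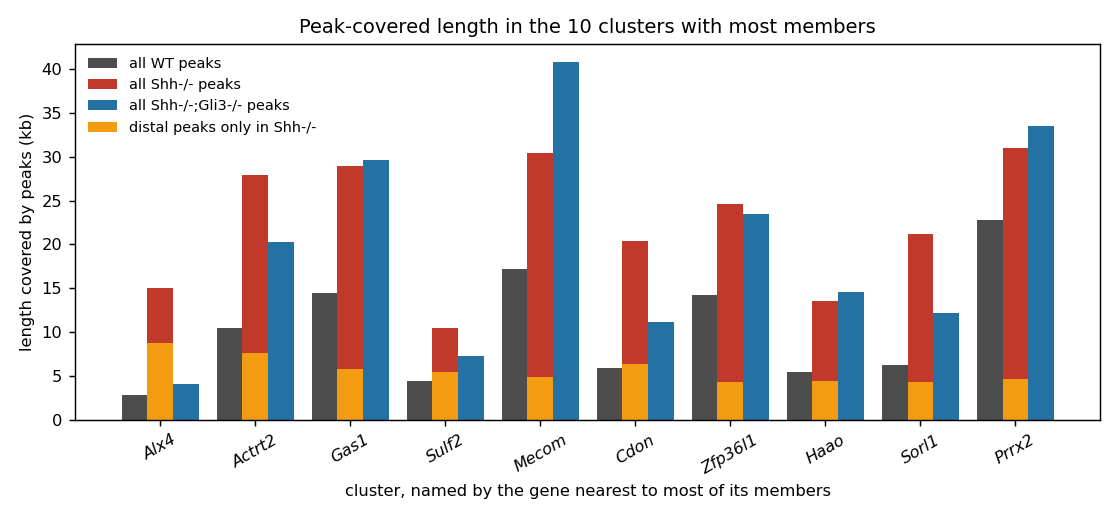
Length covered by peaks (y axis, kb) in the 10 clusters with most members, for all WT, Shh-/- and Shh-/-;Gli3-/- peaks, with the length of the members in orange inside the Shh-/- bar. At Alx4, Actrt2, Sulf2, Cdon, Zfp36l1 and Sorl1 the Shh-/- bar is the highest, and at Gas1, Mecom, Haao and Prrx2 the Shh-/-;Gli3-/- bar is.

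By nearest gene, the members were spread over 4116 of 20696 autosomal protein-coding genes, or 19.9%, while 24.6% were nearest to a distal Shh-/- peak of any kind. Of the 4116 genes, 2368 were nearest to a single member, and 66 were nearest to 10 or more and together took 904 members. The transcription factor gene Zfhx3 had most, with 37 members. Its Shh-/- and Shh-/-;Gli3-/- counts of distal peaks were nonetheless near each other, at 51 and 53, with 19 in WT. Mecom followed with 33 members and 75, 69 and 31 distal peaks in Shh-/-, Shh-/-;Gli3-/- and WT. Med13l and Haao had 23 members each, Zfp36l1 22, Sorl1 20, Gas1 and Alx4 19, and Usp29 and Actrt2 18. Among these 10 genes, Alx4 had the fewest distal peaks outside Shh-/-.

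Promoter peaks gave a view the rule did not use, although from the same libraries. The list said to cover most at a gene is the one whose peaks touching its promoter windows had the greatest summed full width. Over the 10801 autosomal genes with a promoter peak in any list, this was the Shh-/- list in 32.7% (31.8 to 33.6). There were 932 genes nearest to 3 or more members, or 4.50% of all, and among those with a promoter peak the share was 38.1% (34.6 to 41.7) of 716, and among those nearest to 10 or more it was 45.9% (34.0 to 58.3) of 61. The Shh-/-;Gli3-/- list covered most in 47.5% of the 10801 genes, in 47.2% (43.6 to 50.9) of the 716 and in 42.6% (31.0 to 55.1) of the 61. The median summed width of promoter peaks of the 716 was 1.05 kb in both lists. For genes nearest to 10 or more distal peaks only in Shh-/-;Gli3-/-, the Shh-/- list covered most in 24.5% (19.0 to 31.0) of 196, and the Shh-/-;Gli3-/- list in 65.8% (58.9 to 72.1). For genes nearest to 3 or more distal peaks only in WT, the WT list covered most in 9.28% (6.46 to 13.2) of 291, against 10.49% of all. Genes are not independent replicates, and the 2 measures share the libraries.

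Of 236 genes in 16 fixed lists of limb, signalling and cell type genes, 130 were nearest to a member, or 55.1%, against 19.9% of all autosomal protein-coding genes. The same lists were nearest to a distal peak only in WT in 40.7% (all genes 16.0%) and only in Shh-/-;Gli3-/- in 58.9% (all genes 19.8%). The lists were near distal peaks of every genotype more often than genes at large.

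Of the 11 anterior limb genes, 10 were nearest to a member, against 19.9% of all genes, and the same 10 of 11 held for the proximal limb and the FGF feedback lists. In the anterior list 42 of the 64 distal Shh-/- peaks nearest to its genes were members, or 65.6% (53.4 to 76.1), against 53.3% of all distal Shh-/- peaks. Without Alx4, 23 of 42 were members, or 54.8% (39.9 to 68.8), close to the background. Irx3 and Irx5, homeodomain factors of the proximal and anterior bud, had 6 members each. Distal peaks nearest to Irx3 were 14 in Shh-/-, 8 in WT and 14 in Shh-/-;Gli3-/-, and those nearest to Irx5 were 10, 3 and 4. The 6 members were 42.9% (21.4 to 67.4) of the distal Shh-/- peaks of Irx3 and 60% (31.3 to 83.2) of those of Irx5. Peaks that touched the Irx3 promoter had summed widths of 3.20 kb in Shh-/-, 1.15 kb in WT and 1.05 kb in Shh-/-;Gli3-/-, and those at Irx5 1.40, 1.65 and 1.65 kb. Lhx2 had 3 members, Pax1 and Gsc 2 each, and Pax9, Zic2 and Gata6 1 each.

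Of 16 posterior limb genes, 5 were nearest to a member. Bmp2, a secreted ligand expressed posteriorly and in the ridge, had 8 members, Tbx2 5, Sall1 3, Sall3 2 and Tbx3 1. Hand2, a basic helix-loop-helix factor that activates Shh, had 0 members. Its distal peaks numbered 1 in Shh-/-, 7 in WT and 29 in Shh-/-;Gli3-/-, and its promoter peaks had summed widths of 1.30, 1.10 and 4.10 kb. Grem1, a secreted BMP antagonist, had 0 distal peaks in Shh-/-, 3 in WT and 9 in Shh-/-;Gli3-/-. At the 5 genes with members the order of the lists varied. In Shh-/-, WT and Shh-/-;Gli3-/-, Bmp2 had 10, 4 and 8 distal peaks and Tbx2 had 8, 0 and 9. In the same order Sall1 had 4, 3 and 10, Sall3 5, 6 and 22, and Tbx3 1, 6 and 14. Over the posterior list, 92 of the 116 distal Shh-/-;Gli3-/- peaks were in no other list, or 79.3% (71.1 to 85.7), against 63.7% of all. For Shh-/- the same share was 19 of 36, or 52.8% (37.0 to 68.0), near the 53.3% of all distal Shh-/- peaks.

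**Figure D5:**
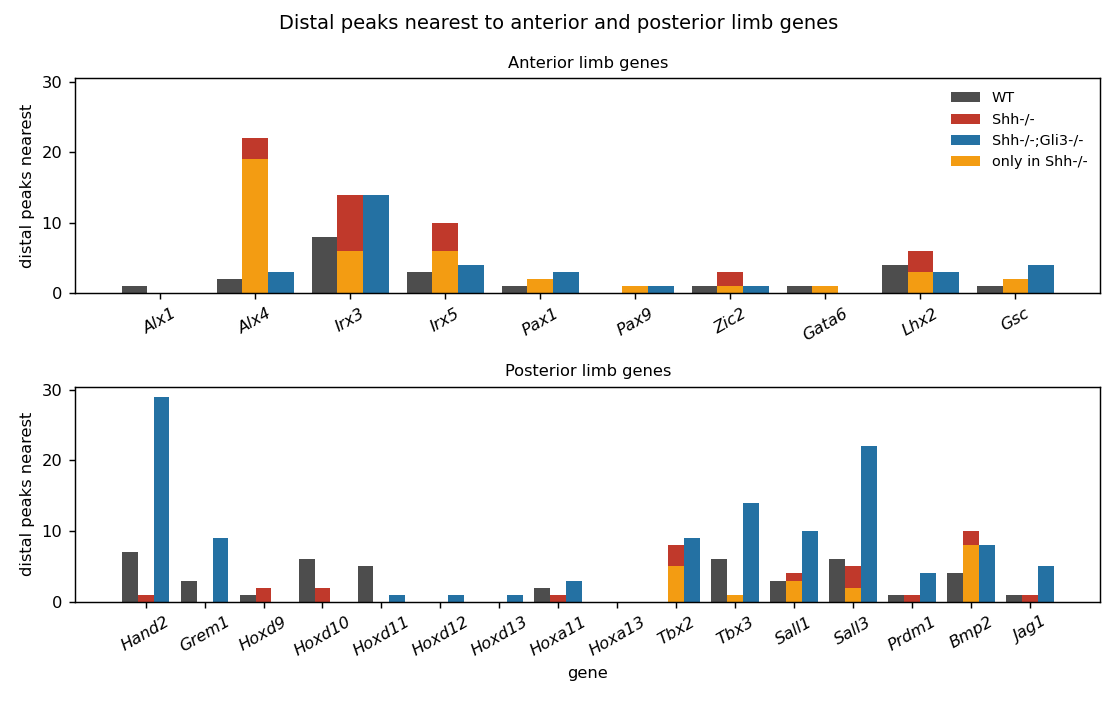
Number of distal peaks nearest to 10 of the 11 anterior (top) and 16 posterior (bottom) limb genes in the WT, Shh-/- and Shh-/-;Gli3-/- lists, with members in orange inside the Shh-/- bar. Alx4 has 22 Shh-/- peaks against 2 and 3, and Hand2 has 1 against 7 and 29.

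Of 14 Hedgehog pathway genes, 8 were nearest to a member, and 60 of their 128 distal Shh-/- peaks were members, or 46.9% (38.4 to 55.5), below the 53.3% of all but with an interval that holds it. Beside Gas1 and Cdon, Gli2 had 9 members, Gli3 and Disp1 6 each, Boc 3, Ptch1 2 and Shh 1. The direct targets showed another pattern. Gli1, whose expression needs GLI activator, had 0 members and 0 distal peaks in both mutant lists but 3 in WT, and its promoter peaks, 0.800 kb in all, were in WT only. The promoter of Ptch1, the SHH receptor, had 4.20 kb of peaks in WT and 5.10 kb in Shh-/-;Gli3-/-, but 1.25 kb in Shh-/-. The paper counts Ptch1, like Gli1, among genes that need GLI activator. At GLI-bound regions near both it reports much lower H3K27ac enrichment in the double mutants. Summed peak width does not measure enrichment, and these measures were not compared here.

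In the remaining lists the share of distal Shh-/- peaks that were members ranged from 20% (7.05 to 45.2) of 15 at housekeeping genes to 70.0% (48.1 to 85.5) of 20 at apical ridge and ectoderm genes. At limb mesenchyme genes it was 57 of 164, or 34.8% (27.9 to 42.3), where it was 53.3% of all distal Shh-/- peaks. There Prrx2 had 11 members, Msx1 and Tfap2a 9 each and Tbx5 5. All distal Shh-/- peaks nearest to Prrx2, Msx1, Tfap2a and Tbx5 numbered 19, 19, 12 and 19. WT had 8, 17, 2 and 24 distal peaks nearest to these genes, and Shh-/-;Gli3-/- had 14, 12, 7 and 12. In the BMP pathway list 56 of 115 were members, or 48.7% (39.8 to 57.7). The inhibitory SMAD genes led, Smad6 with 15 and Smad7 with 14 members. Distal peaks nearest to Smad6 were 24 in Shh-/-, 13 in WT and 7 in Shh-/-;Gli3-/-, and Smad6 promoter peaks had summed widths of 3, 3.55 and 3.25 kb in the same order. In the FGF feedback list 37 of 92 were members, or 40.2% (30.8 to 50.4), with Il17rd, an inhibitor of FGF receptor signalling, nearest to 11. In the WNT pathway list 55 of 127 were, or 43.3% (35.0 to 52.0) and again below 53.3%, with Tcf7l2 nearest to 10, and in the proximal limb list 57 of 124, or 46.0% (37.4 to 54.7).

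The 10 members of highest log2 fold ran from 4.38 down to 4.07 and were nearest to Fndc5, Brd7, Timp3, Fem1c, Gas1, Scrt2, Lpar1, Tfap2a, Ier5 and Unc5a. They were 300 to 700 bp wide, and the first of them in the authors' order of peaks had rank 2723. The Fndc5 member lay 0.150 kb from a Shh-/-;Gli3-/- peak and 57.3 kb from a WT peak, while the Timp3 member lay 0.05 kb from a WT peak and 63.4 kb from a Shh-/-;Gli3-/- peak. The Unc5a member was far from both, 32.4 and 117 kb away. The 5 widest members, 850 to 1100 bp, were nearest to Actrt2, Irf2bpl (2 of them), Rasl11b and Tmc3. The Tmc3 member, at chr7:83289550-83290399, lay 146 kb from a WT peak and 92.9 kb from a Shh-/-;Gli3-/- peak, and 295 kb from the nearest protein-coding start.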

How the data were processed

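H3K27ac MicroChIP-seq had been performed on E10.5 forelimb buds of WT, Shh-/- and Shh-/-;Gli3-/- embryos. The authors aligned reads to mm10 (Bowtie2 2.2.5 in the submitters' processing notes) and called peaks against input with CisGenome. Each list is filed under replicate 1 of its genotype, and pooling of the replicates is not stated. The columns deposited by the authors are peak position and width, a score (the largest value of the caller's statistic, by which peaks are ordered), a log2 fold over input, a Poisson p-value as −log10, which stops at 100, and the FDR, a q-value. Folds of different lists are relative to different inputs and were not compared, except that the same fold bands were used for GC content.

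Lists were intersected in Python 3 with GENCODE M21 basic transcripts. Whether coordinates count from 0 or 1 is not stated, and they were used as given. Nearest genes are those of the nearest protein-coding transcript start. Sequence, GC content and soft-masking came from RefSeq GRCm38. Motif words were searched on both strands in 500 bp at the peak middle. A cluster joins every 3 members within 100 kb. Intervals are 95% Wilson intervals. With 1 list per genotype no test was run. The rule for members, overlaps and clusters was tested on simulated lists. Named were the 10 members of highest fold, the 5 widest, the 10 clusters and 10 genes with most members, up to 4 genes per list by highest fold, up to 8 members with the GLI core, and limb and deleted genes. Other list genes were named after their values were seen. The members and gene lists were chosen with earlier results of these data known. Alternatives were reciprocal 50% overlap, a gap of 500 bp, FDR below 0.05, equal list lengths, peaks of at least 500 bp and other promoter windows. Some genes and 1 sequence that these rules name are not reported here.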

Additional observations from a re-analysis of the deposited data

How the results depend on the processing

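No paired analysis was possible because a genotype is 1 list of peaks without values per replicate, and for the same reason no replicate could be left out. Of 54 alternatives, 20 gave a value inside the counting interval of the reported one and 34 a value outside it, and the cause was not tested. The share of distal Shh-/- peaks found in no other list (53.3%) was 77.0% with reciprocal 50% overlap, 37.8% when a gap of up to 500 bp counted as shared, 48.9% at FDR below 0.05 in all lists, 44.2% at that FDR in the Shh-/- list alone, 50.9% with lists of equal length, 4.17% for peaks of at least 500 bp, 54.2% with promoter windows of 5 kb on both sides and 54.96% with starts of every gene type. In the same order, the share in clusters (49.2%) was 65.2, 35.4, 36.8, 32.7, 39.5, 10.53 and 46.5% up to the 5 kb windows, and 35.9% with clusters of 3 within 50 kb. The 10.53% was 8 of 76 members. The share within 10 kb of another list (59.5%) was 72.0% with reciprocal overlap, 42.9% with the gap, 54.5% at FDR below 0.05 in all lists, 55.98% at equal length, 80.3% for peaks of at least 500 bp, 56.1% with the 5 kb windows, 43.2% to WT alone and 54.5% to Shh-/-;Gli3-/- alone. Median GC was 51.1% in peaks of at least 500 bp and 49.5% in the middle 200 bp. The GLI core share was 1.32% in peaks of at least 500 bp, which is 1 of 76 members (0.233 to 7.08), and 0.150% within the whole peak. The share of list genes (55.1%) was 47.5% with the gap and at equal length, 44.9 and 42.8% at FDR below 0.05 in all lists and in Shh-/- alone, 2.54% for peaks of at least 500 bp, and 64.8% by starts within 100 kb of a member. Counts near named genes, tried after seeing the data, gave 13 to 20 members at Alx4 except 12 at FDR below 0.05 in the Shh-/- list alone and 2 of at least 500 bp. At Gas1 they ran from 0 to 32 and at Cdon from 4 to 17. Hand2 had 0 in all but reciprocal overlap, which gave 1.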
